A study of Mus musculus with 6 samples.

Results

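The genes described here are 9 signalling genes of the interferon and cytokine response: the transcription factors Stat2, Stat3, Irf1, Irf7, Irf8 and Irf9, the feedback inhibitors Socs1 and Socs3, and Ifngr1, a chain of the interferon gamma receptor. They were listed by name, with earlier results of these data known. All 9 were rows of a table of 35434 genes from mouse large intestine. The mice had inflammatory bowel disease (IBD) and had received either control regulatory T cells (Ctrl-Tregs) or lenvatinib-treated ones (Lenv-Tregs), lenvatinib being an inhibitor of several receptor tyrosine kinases. Titles sort the 6 libraries into a group named int 2 (n = 3) and a group named int 3 (n = 3), without linking either name to Ctrl-Tregs or Lenv-Tregs. Strain, age, sex, the way the disease was induced, Treg dose and sampling time are not stated in the labels. Differences are therefore int 3 minus int 2, with no treatment assigned to either. No label tells whether each library is a different mouse, and all p-values refer to the spread between libraries, which may be technical.

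STAT proteins wait in the cytoplasm and are phosphorylated by JAK kinases when a cytokine binds its receptor, after which they enter the nucleus as dimers. Type I interferons bring STAT2 and IRF9 into the complex ISGF3, which binds interferon-stimulated response elements (ISRE). Interferon gamma acts through STAT dimers at gamma-activated sites (GAS) and induces IRF1, while STAT3 carries signals of the IL-6, IL-10, IL-11 and IL-22 families and is known in the gut for epithelial repair and defence. SOCS1 and SOCS3 are induced by these factors and shut the same receptors and kinases down, SOCS1 mainly for interferons and SOCS3 mainly for receptors that use the gp130 chain.

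Since several of these genes are known targets of STAT and ISGF3 complexes, their own promoters were searched for the letters these complexes prefer. All 9 genes matched RefSeq's promoter table (build GRCm38.p6, with 12 start sites in all), and the 250 bases before each start were searched for the GAS letters TTCNNNGAA and, on both strands, for the ISRE letters, which are a pair of GAAA runs with any 2 bases between them. The files themselves use build GRCm39, so the coordinates below are those of the RefSeq table only. The sequences are shown because 5 of the 9 genes carried such letters, and capitals mark them.
Socs3 (GAS, chr11:117969487-117969545, minus strand): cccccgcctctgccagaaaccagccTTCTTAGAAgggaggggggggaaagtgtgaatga
Irf1 (GAS, chr11:53769899-53769957, plus strand): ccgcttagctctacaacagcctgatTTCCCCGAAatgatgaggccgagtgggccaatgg
Irf8 (GAS, chr8:120736162-120736238, plus strand): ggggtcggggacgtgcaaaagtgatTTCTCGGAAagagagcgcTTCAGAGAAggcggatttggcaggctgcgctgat
Socs1 (ISRE, chr16:10785579-10785644, minus strand): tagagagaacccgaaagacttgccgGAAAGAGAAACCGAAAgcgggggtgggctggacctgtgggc
Stat2 (ISRE, chr10:128270251-128270310, plus strand): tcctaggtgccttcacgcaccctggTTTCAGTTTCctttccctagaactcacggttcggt

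The GAS letters began 154 bases before the Socs3 start, 90 before that of Irf1, and 171 and 153 before that of Irf8. In Socs1 a pair of overlapping ISRE matches began 83 and 77 bases before the start, and in Stat2 the ISRE letters lay 222 bases before it, on the opposite strand. Of the 12 start sites of these genes 3 held the GAS letters and 2 the ISRE letters. Among 32851 promoters of the same length, 7.02% held the GAS letters and 2.98% the ISRE letters. A match is a description of the sequence and not evidence of binding, and the windows of Stat3, Irf7, Irf9 and Ifngr1 held neither run of letters within these 250 bases.

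Most of these genes were higher in int 3. In limma's test 7 of the 9 rose, 0 fell, and Socs1 and Ifngr1 did not pass. All 9 reached 1 FPKM (fragments per kilobase of gene, scaled to a fixed library total, a level per length) in every library, so none was tested only because of its int 3 values. Of all 12525 tested genes 8.64% rose and 6.70% fell, so that 56.3% of the calls were rises, against 67.2% with TPM scaling, 51.4% with median-of-ratios scaling and 48.5% with quantile normalization. In 8 of the 9 genes every int 3 library lay above every int 2 library, which held for 22.4% of all tested genes (17.9% in the other direction, 40.4% in both together). The median log2 change of the 9 was 0.69 against 0.03 over all tested genes. Log2 changes are on the scale log2(FPKM + 1), which understates changes of low genes.

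Depth was even, at 34020000 to 35060000 fragments per library (recovered from steps in the values), but the groups differed in spread. The SD of the log2 difference between libraries was 0.110 to 0.115 within int 2 and 0.271 to 0.513 within int 3. Fragment counting alone would give a chi-square per degree of freedom near 1 between the libraries of a group. For the 9 genes it was 0.0394 (Socs3) to 5.23 (Stat3) in int 2 and 7.26 (Irf9) to 327 (Irf1) in int 3. Whether the int 2 libraries come from different mice cannot be told from these values. Int 3-2 and int 3-3 were the farthest apart, and in all 9 genes int 3-1 lay between them, as it did in 73.5% of all tested genes. With int 2 averaged to 1 sample, limma called 0 of the 12525 genes (1132 at unadjusted p under 0.05) and Socs3 had the lowest adjusted p of the 9, 0.102. The 10 listed markers of the large intestine epithelium summed to 3720 to 3748 FPKM in int 2 and 3493 to 3967 in int 3, a sum made up mostly of Krt8 and Epcam. Single markers were far less even. Slc26a3, a chloride transporter of colonocytes, fell from 74.8 ± 0.478 to 35.4 ± 11.3 FPKM (adjusted p = 0.0225). The others did not pass but spread widely over int 3-1, int 3-2 and int 3-3 in some cases. Muc2, the goblet cell mucin, was at 274, 467 and 102 FPKM there against 94.6 ± 1.35 in int 2. Hoxb13, a gene of the distal colon, was at 146, 16.4 and 267 FPKM against 287 ± 1.60, and Car4 at 185, 76.4 and 278 FPKM against 204 ± 2.17. The part of these differences in the results below was not tested. Of 6 small intestine markers Defa24 was listed at 0 throughout, and only Fabp6 reached 1 FPKM. Fabp6 was at 9.67, 8.08 and 6.37 FPKM in int 2, against 30.2, 3.40 and 52.2 in int 3-1, int 3-2 and int 3-3. It did not pass (adjusted p = 0.419), and its part in the results below was not tested either. In whole tissue, fewer cells of a type and less RNA per cell cannot be told apart.

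**Figure D1:**
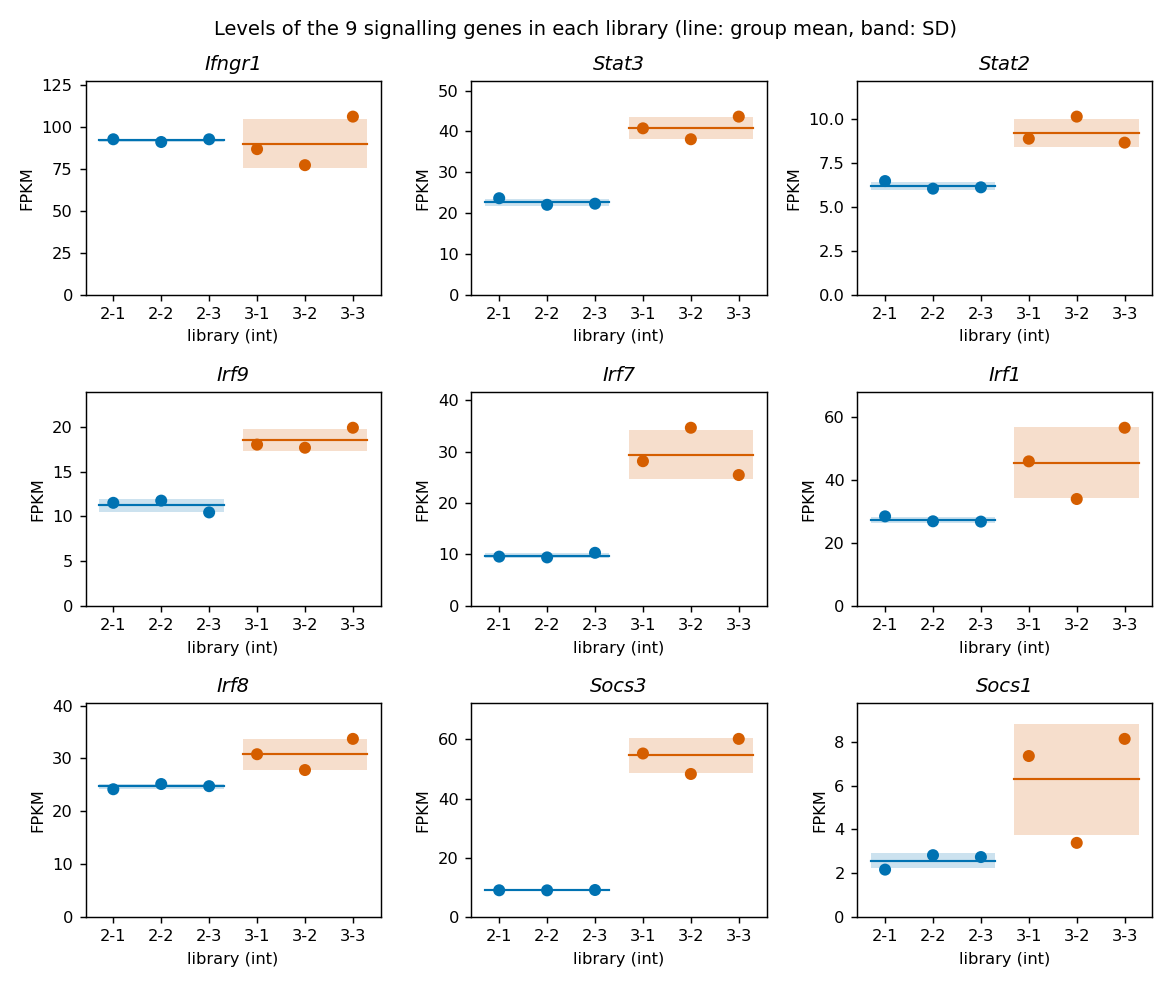
FPKM of each of the 9 genes in the 6 libraries, with int 2 in blue and int 3 in orange; lines are group means and bands are ± 1 SD (n = 3 libraries). Socs3 shows the widest gap, from at most 9.06 FPKM to 48.3 or more, while the Ifngr1 values of int 3 lie on both sides of int 2.

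The receptor chain Ifngr1, which binds interferon gamma, was the most abundant of the 9. It stood at 92.8, 91.2 and 92.8 FPKM in the int 2 libraries 1 to 3, and at 86.9, 77.3 and 106 in the int 3 libraries 1 to 3, the order used throughout. The int 3 libraries lay on either side of the narrow int 2 range, so the groups overlapped. The log2 change was -0.04 (95% interval -0.32 to 0.23, adjusted p = 0.815). Its partner chain Ifngr2 behaved alike, at 51.4 ± 0.381 FPKM in int 2 and 57.7 ± 11.0 in int 3 (SD, n = 3 libraries each; log2 change 0.15, adjusted p = 0.475). Ifng, the ligand of both, was barely detected, at 0.0964, 0 and 0 FPKM in int 2, against 0.291, 0 and 0.0943 in int 3.

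Stat3 rose in every int 3 library by a similar amount. It stood at 23.6, 22.0 and 22.3 FPKM in int 2, against 40.8, 38.1 and 43.6 in int 3. The groups lay far apart, with a log2 change of 0.82 (SE 0.06, adjusted p = 0.00109). The 3 int 3 values were within 1.15-fold of each other, although these libraries differed widely in other genes. In int 2 Stat3 and Stat6, the factor of the IL-4 response, shared the lead of the family, with 31.4% to 32.9% and 32.8% to 33.9% of the summed FPKM of the 7 STAT genes. In int 3 Stat3 made up 36.8% to 42.1% and Stat6 20.6% to 25.4%. Stat5a, which overlaps the Stat3 gene on the opposite strand in GENCODE M21, stood at 2.90 ± 0.144 and 2.64 ± 0.355 FPKM, and whether the counting used strand is not given in the sources used here.

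Socs3, the inhibitor that STAT3 induces, rose more than any other of the 9. It stood at 8.97, 8.95 and 9.06 FPKM in int 2, against 55.3, 48.3 and 60.2 in int 3. The int 2 libraries were almost equal and the int 3 libraries lay far above them, and the ratio of the means was 6.07. The log2 change was 2.47 (SE 0.08, adjusted p = 8.2e-05), the 8th smallest p of the 12525 tested genes. These levels rest on 840 to 846 fragments per int 2 library and 4492 to 5767 per int 3 library. Socs3 ranked 7th of the 9 genes by level in int 2 and 2nd in int 3, where its range overlapped that of Irf1 but not that of Ifngr1. Its share of the summed FPKM of the 8 SOCS family genes was 24.9% to 25.6% in int 2 and 62.4% to 65.9% in int 3. The Socs3 level divided by the Stat3 level of the same library was 0.398 ± 0.0156 in int 2 and 1.33 ± 0.0582 in int 3 (SD, n = 3), without overlap. The exact two-sided permutation p of this ratio was 0.1 (adjusted p = 0.125 over the 5 ratios computed), and 0.1 is the smallest that 3 against 3 libraries allow.

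Socs1, the main inhibitor of interferon receptors, was the least abundant and the most uneven. It stood at 2.16, 2.82 and 2.73 FPKM in int 2, against 7.35, 3.38 and 8.13 in int 3. Int 3-1 and int 3-3 were far above int 2, while int 3-2 exceeded its highest library by little. The log2 change was 0.96 with a wide interval of 0.29 to 1.64, and it did not pass (adjusted p = 0.0676). Without int 3-2 the adjusted p was 0.000618 and the log2 change 1.30. With TPM scaling the adjusted p was 0.0489. Counts were low, with 99 to 130 fragments in int 2 and 154 to 382 in int 3.

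Irf1, a factor that interferon gamma induces, shared this unevenness. It stood at 28.4, 26.8 and 26.7 FPKM in int 2, against 45.9, 33.9 and 56.6 in int 3. Int 3-2 was the lowest of int 3, yet still above all of int 2. Irf1 rose by a log2 change of 0.69 (SE 0.17, adjusted p = 0.0456), close to the threshold. The call was lost without int 2-1, int 2-2, int 2-3 or int 3-1 (adjusted p = 0.139 to 0.156), with no filter (0.091), with median-of-ratios scaling (0.0836) and with quantile normalization (0.0597). Socs1 and Irf1 were the 2 genes of the 9 with the widest int 3 range, the highest library being 2.41-fold and 1.67-fold above the lowest.

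Irf7, which amplifies the type I interferon response, showed the largest rise among the transcription factors. It stood at 9.55, 9.40 and 10.3 FPKM in int 2, against 28.1, 34.7 and 25.4 in int 3. Every int 3 library lay well above every int 2 library, and int 3-2 was the highest. The log2 change was 1.49 (SE 0.11, adjusted p = 0.000974). Phrf1, a gene that overlaps Irf7 on the opposite strand in GENCODE M21, stood at 8.30 ± 0.297 and 8.48 ± 1.27 FPKM (log2 change 0.02, adjusted p = 0.912).

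Stat2 and Irf9, the ISGF3 subunits that are specific to interferon signalling, rose less. Stat2 stood at 6.48, 6.04 and 6.12 FPKM in int 2, against 8.90, 10.2 and 8.67 in int 3 (log2 change 0.50, SE 0.07, adjusted p = 0.00813). Its adjusted p was 0.0527 without int 2-2 and 0.0523 without int 2-3. Irf9 stood at 11.5, 11.8 and 10.4 FPKM in int 2, against 18.0, 17.7 and 19.9 in int 3 (log2 change 0.68, SE 0.07, adjusted p = 0.00281). Neither gene had overlapping groups, and in Irf9 the highest int 3 library was only 1.13-fold above the lowest. Irf9 overlaps Rnf31 on the same strand in GENCODE M21, and Rnf31 stood at 6.98 ± 0.413 and 8.10 ± 0.843 FPKM (log2 change 0.19, adjusted p = 0.198). The level of Irf7 divided by that of Irf9 was 0.872 ± 0.10 in int 2 and 1.60 ± 0.343 in int 3, without overlap (exact permutation p = 0.1, adjusted p = 0.125 over the 5 ratios). Of the 5 ratios only Socs1 divided by Irf1 overlapped between the groups. It was 0.0943 ± 0.0160 in int 2 and 0.134 ± 0.0313 in int 3 (exact permutation p = 0.3).

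Irf8, a factor of dendritic cells, macrophages and B cells, showed the smallest rise. It stood at 24.2, 25.2 and 24.7 FPKM in int 2, against 30.8, 27.8 and 33.7 in int 3. The groups were separate but close, with int 3-2 only slightly above int 2. Irf8 rose by a log2 change of 0.30 (SE 0.08, adjusted p = 0.0442). The call was lost without int 2-1, int 2-2, int 2-3 or int 3-1 (adjusted p = 0.142 to 0.166), with no filter (0.0732), with median-of-ratios scaling (0.138) and with quantile normalization (0.103). Markers of the cell types that carry Irf8 moved in different directions. All 8 B cell markers fell, and their summed level was 142 to 148 FPKM in int 2 and 4.75 to 41.5 in int 3. Of 10 monocyte and macrophage markers 6 rose and 2 fell, and their sum was 457 to 462 FPKM in int 2 and 371 to 474 in int 3. That sum was mostly Lyz2, which fell from 335 ± 3.51 to 238 ± 42.4 FPKM, as did the less abundant Ly6c2. Adgre1, C1qa, C1qb, C1qc, Cd68 and Ccr2 rose, while Csf1r and Cx3cr1 did not pass. Of 6 markers of type 1 dendritic cells only 3 were tested and 1 fell, with a sum of 6.03 to 6.95 FPKM in int 2 and 2.93 to 6.12 in int 3. Predicted genes overlap Irf8 and Irf1 in GENCODE M21. No marker of these cell type lists was at 0 in all libraries, and their part in the Irf8 result was not tested.

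The order of the genes by level also differed between the groups. In int 2 it was Ifngr1, Irf1, Irf8, Stat3, Irf9, Irf7, Socs3, Stat2 and Socs1, and no neighbours overlapped. In int 3 it was Ifngr1, Socs3, Irf1, Stat3, Irf8, Irf7, Irf9, Stat2 and Socs1. There the libraries of Socs3 and Irf1, of Irf1 and Stat3, and of Irf8 and Irf7 overlapped.

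The int 3 libraries placed the 9 genes in 2 orders. Irf7 and Stat2 were highest in int 3-2 and lowest in int 3-3. The other 7 genes were highest in int 3-3 and lowest in int 3-2. Among all tested genes 56.9% were highest in int 3-2 and 29.5% in int 3-3. The ISGF3 targets sided with Irf7 and Stat2, since 14 of 16 tested ones were highest in int 3-2. Of 22 tested STAT3 targets 15 were highest in int 3-2. These counts describe 3 libraries and were not tested. The summed B cell markers of int 3-1, int 3-2 and int 3-3 were 25.3, 4.75 and 41.5 FPKM. The summed epithelial markers were at 3745, 3493 and 3967 FPKM, and the smooth muscle markers at 3537, 3230 and 3805 FPKM. These sums too were lowest in int 3-2 and highest in int 3-3. However, Muc2, Cdx2, Krt20 and Car1 among the epithelial markers had the opposite order. So did Cnn1 among the smooth muscle markers, at 396, 417 and 391 FPKM, while Des was highest in int 3-1. The part of these markers in the order was not tested.

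**Figure D2:**
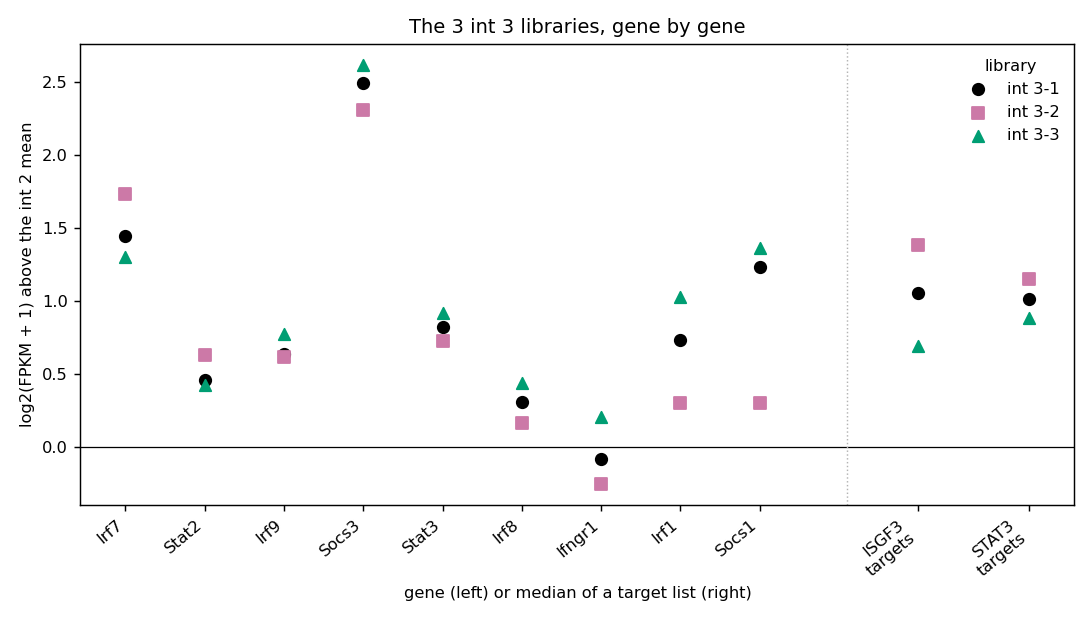
Level of each gene in the 3 int 3 libraries as log2(FPKM + 1) above the int 2 mean, with the medians of the tested genes of 2 target lists on the right. Irf7, Stat2 and the ISGF3 targets have int 3-2 on top, while Irf1 and Socs1 have int 3-2 at the bottom at 0.30.

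Few of the other named genes of the 3 families changed. Stat5a, Stat5b and Stat6 did not pass, with log2 changes of -0.10, -0.13 and 0.01, and Stat4 was below the filter at 0.927 ± 0.00835 and 0.899 ± 0.118 FPKM. Irf4, a factor of plasma cells and activated lymphocytes, fell from 1.74 ± 0.138 to 0.398 ± 0.245 FPKM (adjusted p = 0.00723), and reached the filter only through int 2. Irf2, Irf3 and Irf5 did not pass, with log2 changes of -0.25, -0.13 and -0.09. None of the 6 other SOCS genes passed in limma's test (0 of 6, all with unadjusted p over 0.05). They were Cish (-0.24), Socs2 (-0.13), Socs4 (0.06), Socs5 (0.06), Socs6 (0.17) and Socs7 (0.06).

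Upstream of the STAT proteins, Jak3, the kinase of the common gamma chain receptors, rose from 3.56 ± 0.105 to 6.35 ± 0.111 FPKM (log2 change 0.69, adjusted p = 0.00113). Jak1, Jak2 and Tyk2 did not pass, with log2 changes of 0.06, 0.03 and -0.05.

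**Figure D3:**
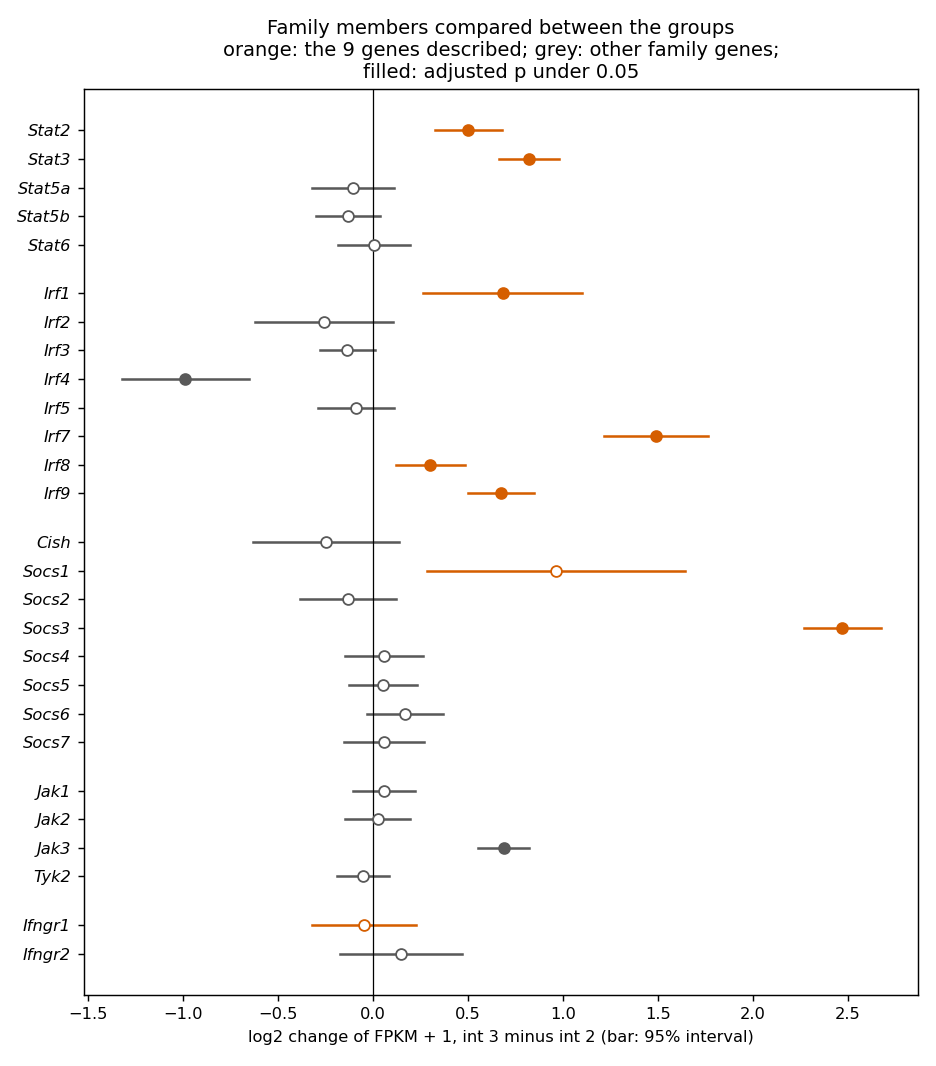
Log2 change of FPKM + 1 between int 3 and int 2 for tested STAT, IRF, SOCS and JAK genes and the interferon gamma receptor chains, with 95% intervals from limma. Socs3 and Irf7 lie farthest to the right, at 2.47 and 1.49, and Irf4 is the only gene shown that fell.

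Among 20 listed cytokine receptor genes 16 were tested, of which 1 rose and 4 fell. Osmr, a gp130 partner that binds oncostatin M, rose from 2.49 ± 0.163 to 5.36 ± 0.399 FPKM (adjusted p = 0.00153). Il6st, which encodes gp130 itself, stood at 17.5, 17.8 and 18.5 FPKM in int 2, against 26.4, 31.7 and 21.0 in int 3 and did not pass (adjusted p = 0.0560). Il22ra2, a soluble receptor that captures IL-22, fell from 10.6 ± 0.580 to 1.83 ± 0.948 FPKM and Il21r from 3.27 ± 0.252 to 1.19 ± 0.449 (adjusted p = 0.00358 and 0.0096). The Il21r call was lost without int 2-1, int 2-2 or int 3-1 (adjusted p = 0.0547 to 0.0564). Lymphocyte markers were lower as well. All 8 B cell markers fell, and of 6 tested T cell markers 3 fell and 0 rose. The T cell markers summed to 25.4 to 27.2 FPKM in int 2 and 7.84 to 16.4 in int 3. Their part in the falls of Il21r and Irf4 was not tested. Il10rb, the chain shared by the IL-10, IL-22 and lambda interferon receptors, did not pass (log2 change 0.02).

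Most ligands were too low to test. Of 20 listed, 2 reached the filter, and Ifnb1, Ifna2, Ifna4, Ifnl2, Ifnl3, Ifne and Ifnk were listed at 0 in all 6 libraries. Il11, a gp130 cytokine, rose from 0.181 ± 0.0632 to 2.65 ± 1.58 FPKM (adjusted p = 0.0242). Leaving out int 3-1 or any int 2 library ended this call, with adjusted p from 0.0933 to 0.102. It reached the filter only through int 3. Clcf1, another gp130 cytokine, fell from 1.97 ± 0.111 to 0.876 ± 0.0960 FPKM (adjusted p = 0.0037), and reached the filter only through int 2. Il6 was at 0, 0.0763 and 0 FPKM in int 2, against 1.05, 1.06 and 0.525 in int 3, and Il22 at 0.104, 0.0829 and 0 against 0.544, 0.231 and 0.977. Il10 stood at 0.0604 ± 0.0353 and 0.181 ± 0.0885 FPKM. None of these 3 was tested.

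Of 10 further inhibitors 2 rose and 1 fell. Usp18, which removes ISG15 and blocks the type I interferon receptor, rose from 1.25 ± 0.302 to 3.76 ± 0.853 FPKM (adjusted p = 0.00837). Ptpn1, a phosphatase of JAK2 and TYK2, rose by a log2 change of 0.44 (adjusted p = 0.0075, and 0.0514 and 0.0512 without int 2-2 and int 2-3). Ptpn6, the phosphatase SHP-1 of blood cells, fell from 27.1 ± 0.294 to 12.0 ± 2.10 FPKM (adjusted p = 0.00293). The part of the lower lymphocyte markers in this fall was not tested. Pias4 did not pass (log2 change 0.02). Of 9 tested adaptors and kinases that activate IRF3 and IRF7, Myd88 and Irak4 rose by 0.40 and 0.30 (adjusted p = 0.0210 and 0.0144), and both calls were lost without int 2-1, int 2-2, int 2-3 or int 3-1 (0.0597 to 0.102). Both were lost with the replicate block too (0.06 for Myd88, 0.0717 for Irak4). Myd88 was also lost with median-of-ratios scaling (0.0677) and with quantile normalization (0.0521). Tbk1 and Ikbke did not pass, with log2 changes of 0.28 and 0.03.

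Listed targets of ISGF3 and of STAT3 were mostly higher in int 3. The lists were chosen with earlier results of these data known, so their counts are descriptions only. Of all 12525 tested genes 8.64% rose and 6.70% fell. Of 16 tested ISGF3 targets 13 rose and 0 fell, with a median log2 change of 1.09. Isg15, a ubiquitin-like modifier, rose from 4.82 ± 0.167 to 26.1 ± 9.29 FPKM, Oasl2 by 1.84 and Rtp4 by 1.33 (adjusted p = 0.00315, 0.00161 and 0.000278), while Oas1a did not pass (0.27). Of 22 tested STAT3 targets 17 rose and 0 fell, with a median of 0.95. Fut2, a fucosyltransferase of the epithelium, rose from 33.7 ± 0.454 to 76.1 ± 4.16 FPKM, Junb from 101 ± 1.76 to 179 ± 2.49 and Bcl3 from 14.9 ± 0.487 to 30.5 ± 1.42 (adjusted p = 0.000191, 0.000278 and 0.000349). Mcl1, a survival factor, did not pass (-0.04). Usp18 stands in both the inhibitor and the ISGF3 list, and S100a8 and S100a9 are STAT3 targets as well as neutrophil markers. The 7 neutrophil markers summed to 39.1 to 39.9 FPKM in int 2 and 77.1 to 162 in int 3. That sum was mostly Ly6g, which did not pass (adjusted p = 0.0697) and stood at 106, 51.8 and 155 FPKM in int 3. The other markers had the opposite order there, with S100a8 at 5.76, 10.5 and 3.86 FPKM and S100a9 at 6.88, 12.7 and 2.23. In int 2 S100a8 and S100a9 averaged 0.0747 and 0.0371 FPKM. The part of the neutrophil markers in the STAT3 target counts was not tested. The ISGF3 and STAT3 target lists held 2 and 5 genes that reached the filter through int 3 alone, which favours rises among them. When int 3-1 or any int 2 library was left out, 4 to 6 ISGF3 targets and 12 STAT3 targets rose. Without int 3-2 or int 3-3 the numbers were 15 and 18 to 20.

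**Figure D4:**
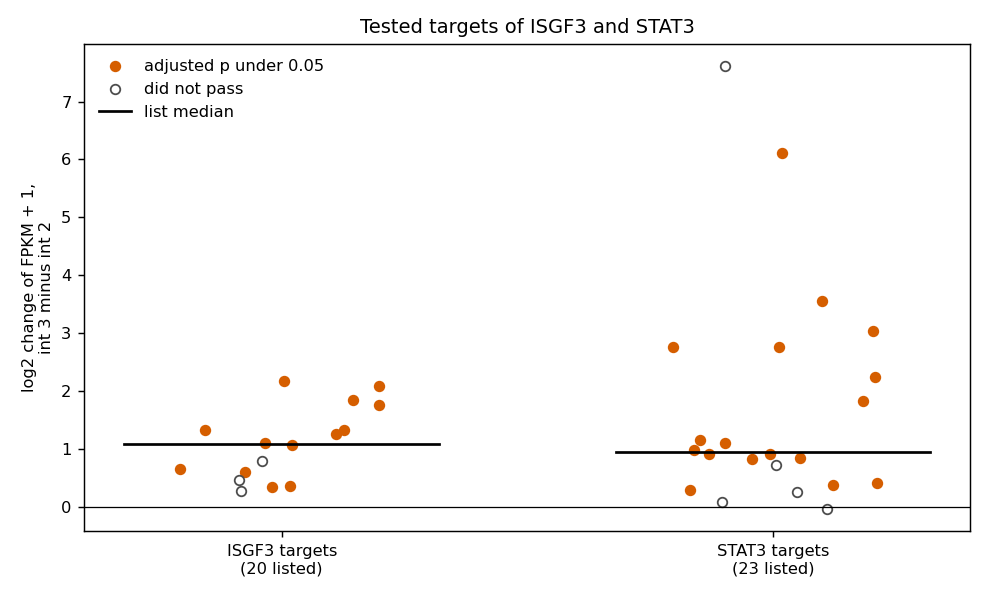
Log2 change of FPKM + 1, int 3 minus int 2, for each tested gene of 2 target lists; filled points passed limma's test, open points did not, and black lines are the list medians of 1.09 and 0.95. The open point at the top of the STAT3 targets is Reg3b, at 7.61.

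Several genes followed the members closely over the 6 libraries. The nearest profiles of each gene by Pearson's r of log2(FPKM + 1) over the 6 libraries are given as descriptions, and they share the libraries and the group difference. Socs3 was closest to Trim40 and Cd177, Stat3 to Tmem127 and Ifitm1, and Irf7 among others to Itga3, all with r of 0.9993 or more. Irf1 was nearest to Elf3, an epithelial transcription factor (r = 0.9978), and Irf8 to Mpeg1, which encodes the pore-forming protein perforin-2 of macrophages (r = 0.9985). Stat2 was nearest to Letm1 and Nol3, Irf9 to Actr3 and Pygb, Socs1 to Fblim1 and Mrpl27, and Ifngr1 to Ndufa9 and Atp9a, with r of 0.994 to 0.9986. Such likeness was common, since 133 genes had r over 0.99 with Irf7 and 118 with Socs3, but only 4 with Socs1 and 3 with Ifngr1. The level of Trim40 was 1.92 ± 0.0972 FPKM (SD, n = 3) in int 2 against 12.3 ± 1.12 in int 3, a ratio of 6.41 beside the 6.07 of Socs3. A high r does not mean a change of like size. The same ratio was 1.11 for Tmem127 and for Letm1, and 1.08 and 1.07 for Fblim1 and Mrpl27, beside 2.45 for Socs1. Tmem127, Letm1, Fblim1 and Mrpl27 did not pass in limma's test, nor did Ndufa9 and Atp9a. The other neighbours named here passed.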

How the data were processed

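Total RNA from 6 mouse large intestine samples, isolated with TRIzol, went into libraries of the VAHTS Universal V10 kind, per the labels' protocols. The values deposited by the authors are FPKM, in a table of 35434 genes with a column for each sample title. GRCm39 is the build named in the submitters' processing notes, and aligner, counter, annotation and strand handling are not given in the sources used here. The members and gene lists were chosen with earlier results of these data known.

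The test took genes that reached 1 FPKM in 3 or more of the 6 libraries. log2(FPKM + 1) was fitted with limma 3.58.1 in R 4.3.3 (eBayes with trend, two-sided, no block), with Benjamini-Hochberg adjustment over 12525 genes and a threshold of 0.05. The fit was tested on simulated data. All 9 members were named, as were the STAT, IRF, SOCS and JAK lists whole, the 3 genes of smallest p and the 1 of largest p in each other list, a few genes fixed by name, and the 2 nearest profiles. Any other gene named was chosen after its values were seen. Some genes and 1 target list that this rule covers are not reported here.

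Depth and whole fragments came from the steps in the FPKM values (99.5% of tested genes whole within a relative 1e-06). Ratios used exact permutation tests. Python 3.11.15 read the RefSeq promoters and drew the figures. Alternatives were other pseudocounts, filters, scalings, weights, a replicate block, a 1.5-fold test, leaving out each library and, added after the data were seen, limma voom on whole fragments and int 2 averaged to 1 sample.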

Additional observations from a re-analysis of the deposited data

How the results depend on the processing

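Of the 9 members, 7 rose in limma's test; the count was 5 with no filter, with median-of-ratios scaling, with quantile normalization and with the replicate block, 8 with TPM scaling and with library weights, and 2 in the test against a 1.5-fold change. It was 4 to 8 with 1 library left out, 4 without int 2-2 or int 2-3 and 8 without int 3-2. With int 2 averaged to 1 sample it was 0, as were the counts of all genes and of the other pathway genes in both directions; fewer samples enter that fit. With library weights 1 member, Ifngr1, fell (adjusted p = 0.0111). Those weights did not converge, and they gave 5450 higher and 3771 lower among all genes and 21 lower among the other pathway genes. Socs3 and Irf7 kept their call in 17 of 18 alternatives, Stat3 and Irf9 in 16, Stat2 in 14, Irf1 and Irf8 in 8. Among all genes, 1082 rose and 839 fell; the 1.5-fold test gave 72 and 40, and leaving out 1 library 372 to 3124 and 241 to 1789, both highest without int 3-3 and lowest (at most 385 and 270) without int 3-1 or any int 2 library. A mean FPKM of 5 or more left 496 lower. Of the other pathway genes 51 rose and 8 fell; the values were 33 and 2 at a mean FPKM of 5 or more, 18 and 1 in the 1.5-fold test, and 29 to 63 and 4 to 11 with 1 library left out. Apart from the averaging, the filter, the leave-outs and the 1.5-fold threshold, the cause of these changes was not tested.

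With the replicate number as a block, 516 genes rose and 373 fell, and Irf1 and Irf8 no longer passed (adjusted p = 0.0723 and 0.102). Same-numbered libraries did not deviate together (correlations of -0.015, 0.004 and -0.022 over genes for numbers 1 to 3), and no library correlated best with its own number across groups. The int 2 libraries differed so little that a shared deviation could hardly show. Whether same-numbered libraries are paired therefore cannot be told from these values.

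Socs1 had 99 to 382 fragments per library, the fewest of the members. Other limits are 3 libraries a group and the unequal spread of the groups, which limma's shared variance does not model.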
